A study of Mus musculus with 12 samples.

Results

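Emodin was added to macrophages that were stimulated with bacterial lipopolysaccharide (LPS) and interferon gamma (IFNg), and the expression of 12523 genes was compared with that in cells given the 2 stimuli alone. All arrays titled as LPS plus IFNg with emodin (4 arrays) and all titled as LPS plus IFNg (4 arrays) were taken, which is 8 of the 12 arrays of the series, and the 4 unstimulated arrays were not used. Per the labels, the cells were peritoneal macrophages of 9 week old female C57BL/6 mice, described as wild type in the titles. Cells that did not stick to the dish were washed off 2 hours after plating, and the rest spent a night without serum before treatment. Both groups received LPS at 100 ng/ml and IFNg at 20 ng/ml, 1 group also received emodin at 50 μM, and RNA was taken after 20 hours per the sample descriptions (overnight per the treatment protocol). The 4 samples per group are stated to be biological replicates, but none is tied to an animal, and a p-value here measures sample-to-sample spread, which may be technical. Expression was read on single-colour Agilent mouse arrays from Cy3-labelled cRNA that was made from 200 ng of RNA. In RNA of a whole culture, fewer cells of a type and less RNA per cell cannot be told apart.

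LPS binds Toll-like receptor 4 and IFNg binds its own receptor. Together they drive macrophages into classical activation, in which NF-kB and interferon regulatory factors, among others, switch on genes for cytokines, chemokines, antigen presentation, nitric oxide synthesis and defence against viruses and intracellular microbes. Emodin is a plant anthraquinone found in rhubarb and knotweed roots.

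The arrays were scaled in 2 ways, and every difference below is the emodin group minus the LPS plus IFNg group on the log2 scale. With percentile scaling, the 75th percentile of each array's log2 signal was set to 0. With spike-in scaling, the mean of 8 probes for (+)E1A, synthetic RNAs added in a known amount before labelling, was set to 0. Before scaling, the (+)E1A signal differed by -0.05 ± 0.06 (SE, n = 4 per group, exact two-sided permutation p = 0.371). The signal of the median gene differed by -0.88 ± 0.10 (SE), and its exact permutation p of 0.0286 is the lowest this design allows. Within same-numbered pairs the exact p of the median gene was 0.125, the smallest that 4 pairs can give. The 75th percentile itself lay at a signal of 370 to 466 on the emodin arrays and at 637 to 795 on the LPS plus IFNg arrays, without overlap. Probes not well above background on any of the 8 arrays (22598 probes) also read lower on the emodin arrays, by -0.80 ± 0.13 (SE), while the share of probes well above background was 45.4% to 48.4% against 45.7% to 48.0%. All emodin arrays lay in row 1 of the slide and all LPS plus IFNg arrays in row 2, so array row and treatment cannot be told apart.

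**Figure D1:**
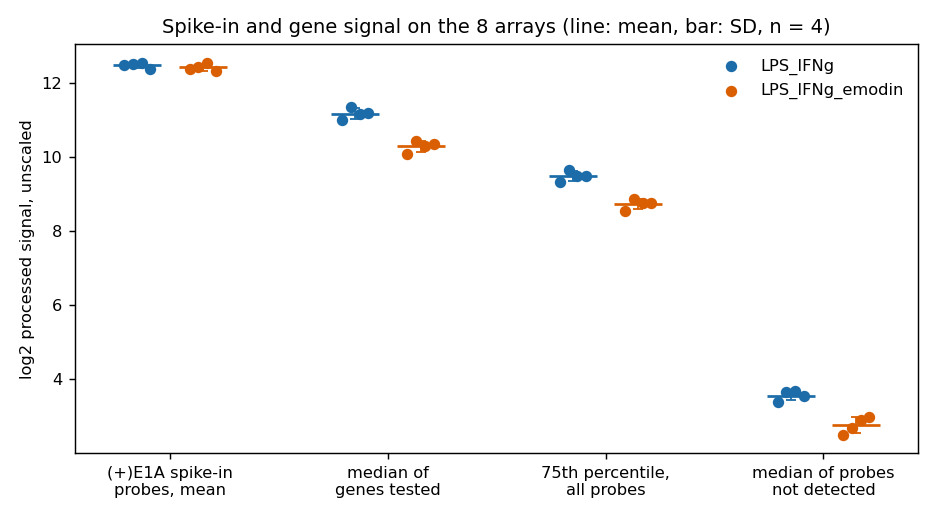
Unscaled log2 processed signal (vertical axis) of 4 measures on each of the 8 arrays, with the mean (line) and SD (bar) of each group, LPS plus IFNg in blue and LPS plus IFNg plus emodin in orange. The (+)E1A spike-ins differ by -0.05 between the groups, the median gene by -0.88 and the undetected probes by -0.80.

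The tissue label was checked with marker genes, because the design text names peripheral blood cells instead. All 9 macrophage markers that had a named probe were well above background on all 8 arrays, among them Adgre1 (F4/80) and Csf1r, the receptor of macrophage colony stimulating factor. Of 11 neutrophil markers with a probe, 8 were well above background on at least 1 array and 5 on all 8 arrays. Ngp, Cxcr2 and Retnlg were not well above background on any array. Replicate 3 of both groups stood apart: Xist, the X-inactivation RNA of female cells, was not detected on those 2 arrays and lay at 0.35 to 1.32 on the other 6, whereas the Y-linked Ddx3y and Eif2s3y were detected on those 2 arrays and on no other. These 2 libraries go against their label of female. Without replicate 3 of both groups, 4341 genes were higher and 4377 lower with percentile scaling, of which 4238 and 4332 are calls of the full set, and 988 were higher and 7766 lower with spike-in scaling (973 and 7730 shared). No gene turned to the opposite call, and of the genes named below, Ifnb1 with the spike-ins and Gapdh with the percentile lost theirs.

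Most genes differed, and for many of them the direction depended on the scaling. A gene was called when its limma test gave a Benjamini-Hochberg adjusted p under 0.05 over all 12523 genes. With percentile scaling 4616 genes were higher with emodin (36.9%) and 4704 were lower (37.6%), and the median difference was 0.003. With spike-in scaling 1150 genes were higher (9.18%) and 8430 were lower (67.3%), and the median difference was -0.70. Switching from the percentile to the spike-ins moves every difference by -0.70, so all 1150 genes that were higher with the spike-ins were also higher with the percentile, and all 4704 that were lower with the percentile were also lower with the spike-ins. These 5854 genes (46.7%) had the same call with both scalings, at 2-fold or more for 391 rises (3.12%) and 2035 falls (16.3%). Another 2667 genes (21.3%) were higher with the percentile and not called with the spike-ins, 2927 (23.37%) were lower with the spike-ins alone, 799 (6.38%) were higher with the one and lower with the other, and 276 were called with neither. Below, "rose" or "fell" without a scaling means the same call with both. List counts below are to be read against the shares of all genes called higher or lower given above.

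**Figure D2:**
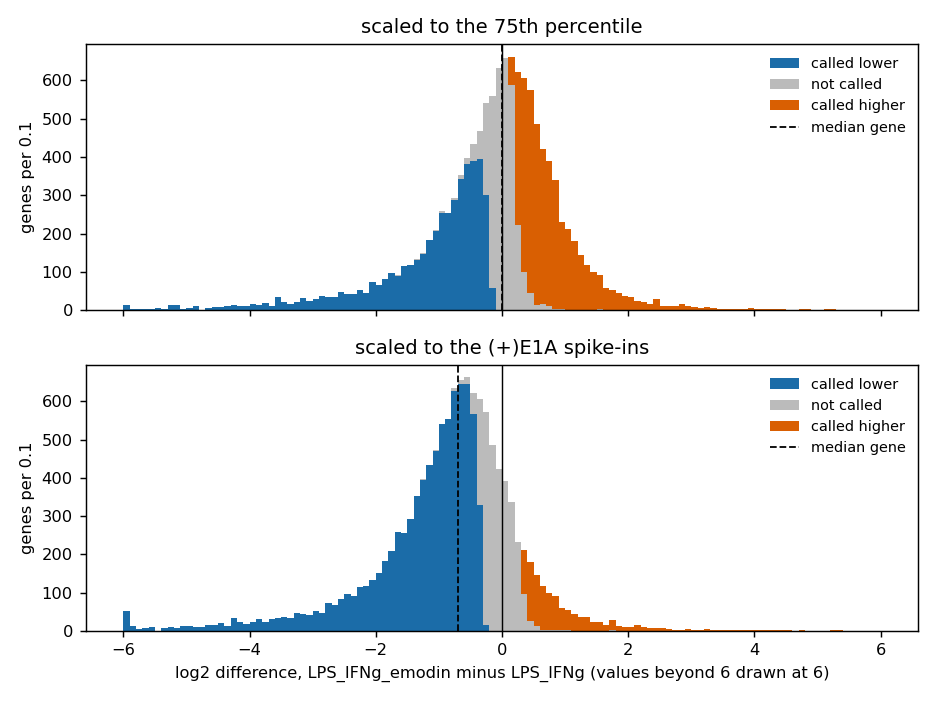
Number of genes per 0.1 log2 unit (vertical axis) by their log2 difference between the emodin arrays and the LPS plus IFNg arrays (horizontal axis), scaled to the 75th percentile above and to the (+)E1A spike-ins below. Orange marks genes called higher (4616 above, 1150 below), blue those called lower (4704 and 8430), grey those not called, and the dashed line the median gene, at 0.003 and -0.70.

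For most genes the 2 groups of arrays were fully separate. With percentile scaling all 4 emodin arrays lay above all 4 LPS plus IFNg arrays for 34.3% of genes and below them for 35.4%, and with spike-in scaling for 8% and 62.3%. The differences within the 4 same-numbered pairs had the same sign for 80.3% of genes with the percentile. Across genes, which are not independent replicates, the 4 pair differences correlated with each other at r = 0.922 to 0.960, and their SD over genes was 1.18 to 1.28.

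The largest rise among genes detected on all 8 arrays was that of Pgm5, a phosphoglucomutase relative found at cell adhesions, which read 2.56, 3.06, 3.17 and 2.78 on emodin arrays 1 to 4 and -3.07, -3.12, -3.29 and -3.08 on LPS plus IFNg arrays 1 to 4 (log2 signal relative to the 75th percentile, the scale of all array values below). It rose by 6.03 without overlap. Rasgrp4, an exchange factor that loads Ras with GTP, read 3.40, 3.36, 3.32 and 3.06 on emodin arrays 1 to 4 and -1.19, -1.27, -1.19 and -1.15 on LPS plus IFNg arrays 1 to 4. The groups lay far apart and the arrays of each close together, and the difference was 4.49 ± 0.09 (SE, limma adjusted p = 1.2e-08) or 3.78 with the spike-ins. Rapgef3, the cAMP-activated exchange factor for Rap known as EPAC1, read 2.14, 2.49, 3.10 and 2.06 against -2.02, -2.57, -2.45 and -2.05, a rise of 4.72 ± 0.24 (SE, limma adjusted p = 5.8e-07). Gab2, a docking protein that recruits PI3 kinase and the phosphatase SHP2, read 0.97, 1.08, 1.43 and 1.04 against -2.70, -2.86, -2.94 and -3.05. Its difference was 4.02 with the percentile and 3.32 with the spike-ins. Every emodin array was above every LPS plus IFNg array for these 3 genes, as their choice required. Cxcr1, a receptor for neutrophil-attracting CXC chemokines, read 2.52, 2.04, 2.57 and 2.24 against -1.38, -2.18, -2.02 and -1.54. Map3k20, a kinase of the stress-activated MAP kinase cascade, rose by 4.06, the Ras-like GTPase Rasd2 by 4.84, and the secreted protease Htra4 by 4.21. Bex1, Prrg4 and Ankrd33b rose by 4.78, 4.34 and 4.04.

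Another 6 rises started from a level that was not well above background on any LPS plus IFNg array, so only a lower bound exists. Hamp, which encodes the iron hormone hepcidin, read 3.68, 3.36, 4.16 and 4.47 on the emodin arrays and was at least 244-fold higher with the percentile and at least 150-fold higher with the spike-ins. Vnn1, the pantetheinase that releases cysteamine, read 0.29, 1.11, 1.07 and 1.03 on the emodin arrays and was at least 30.0-fold higher. The bounds were 24.5-fold for the predicted gene Gm13580, 16.8-fold for Tmem184a, 14.4-fold for the fibrillar collagen Col27a1 and 13.3-fold for the protocadherin Pcdha8. Among all genes with such a bound, these were the 6 largest.

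The largest falls included those of a chemoattractant, surface proteins and a lipid enzyme. Ccl7, a monocyte chemoattractant, read 2.43, 1.18, 1.76 and 1.58 on the emodin arrays against 7.12, 7.08, 7.42 and 7.03, and fell by 5.42 on the log2 scale (limma adjusted p = 3.08e-07). Ch25h, which makes 25-hydroxycholesterol, read -0.37, -1.13, -1.97 and -0.61 against 4.33, 4.07, 4.15 and 4.34. Edn1, the precursor of endothelin-1, read -2.63, -2.91, -2.50 and -2.90 against 2.03, 2.61, 2.87 and 2.34. The groups were more than 4 units apart for all 3 genes and did not overlap, the latter as their choice required. Rgs14, which limits Gi signalling, read -1.22, -1.31, -0.95 and -1.09 against 3.91, 4.20, 4.26 and 4.11 and fell by 5.26. Afp, the fetal plasma protein alpha-fetoprotein, read -2.99, -2.93, -2.62 and -2.89 against 2.32, 2.74, 2.62 and 2.53 and fell by 5.41. These 2 genes had the tightest replicates of the largest falls, with standard errors of 0.10 and 0.11. Scimp, a transmembrane adaptor of Toll-like receptor signalling, fell by 5.29, the microtubule-binding protein Dpysl2 fell by 5.30 and the lipoprotein lipase inhibitor Angptl4 fell by 5.21. Egfr, the epidermal growth factor receptor, also fell by 5.30 by its brightest probe, which was not well above background on all 8 arrays. With only probes that were, Egfr differed by -0.21 with the percentile (limma adjusted p = 0.18) and was not called. Members of the Ly6 family of surface proteins were also among the 12 largest falls, since Ly6a fell by 6.87, Ly6c1 fell by 6.08 and Ly6f fell by 5.19.

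Some falls ended below detection on all 4 emodin arrays. Serpinb2, a plasminogen activator inhibitor of macrophages, read 5.38, 4.52, 4.96 and 5.47 on the LPS plus IFNg arrays and was at least 555-fold lower with emodin (at least 902-fold with the spike-ins). Bounds of at least 84.6-fold for the chemokine Cxcl5, 63.4-fold for the metalloproteinase inhibitor Timp3, 35.2-fold for the interleukin-21 receptor chain Il21r, 33.4-fold for the epithelial envelope gene Sprr2e and 28.7-fold for the sulfatase Sulf1 followed.

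**Figure D3:**
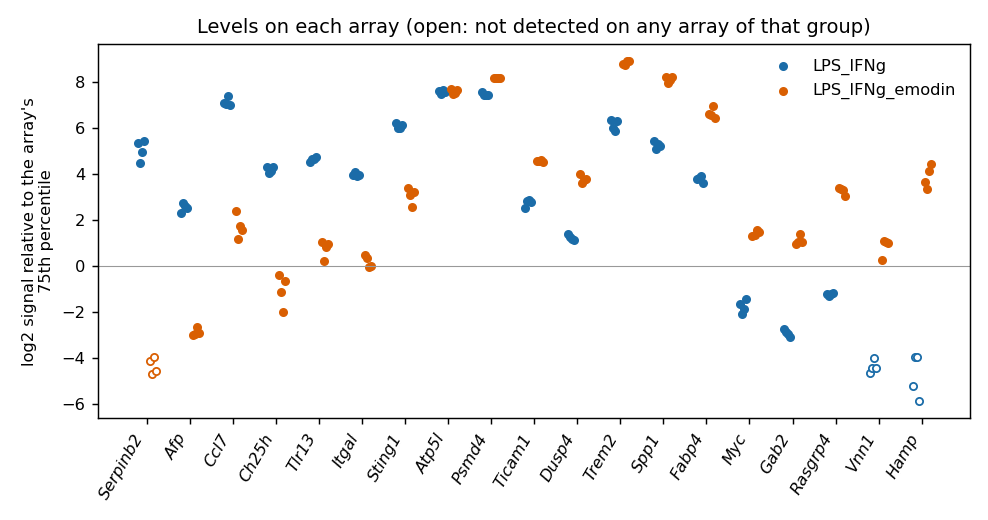
Log2 signal relative to each array's 75th percentile (vertical axis) for 19 named genes (horizontal axis), 4 LPS plus IFNg arrays in blue and 4 emodin arrays in orange, with open symbols where no array of the group was well above background. From left to right the difference goes from the largest fall, Serpinb2, through Atp5l and Psmd4, which mark 0 with percentile and spike-in scaling, to the largest rise, Hamp.

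Genes near 0 show what each scaling treats as unchanged. Among the 500 brightest genes, Atp5l, Clec4d, Nme2 and Btn1a1 lay nearest 0 with the percentile, and they differed by -0.69 to -0.71 with the spike-ins. With quantile normalization they lay at -0.36 to -0.41 and were called lower. Rps9, Rpl13, Psmd4 and Grn lay nearest 0 with the spike-ins and were higher by 0.70 with the percentile. Of 16 reference genes tested, 10 were higher and 5 lower with the percentile, and 12 were lower and none higher with the spike-ins. Actb fell by 0.31 and Pgk1 fell by 0.78 on the log2 scale, whereas Gapdh was 0.23 higher with the percentile and lower with the spike-ins (-0.47), and other Gapdh probes lay at -0.56 to -0.19 with the percentile. The higher call of Gapdh turned to -0.20 with quantile normalization and -0.34 with the mean of its probes, and was lost without replicate 3 of both groups (0.20, limma adjusted p = 0.152) or without any single array but emodin replicate 4 and LPS plus IFNg replicate 1 (adjusted p = 0.0724 to 0.10).

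Toll-like receptors were lower more often than higher. Of 23 Toll-like receptors and adaptors tested, 5 were higher and 12 lower with the percentile, against 36.9% and 37.6% of all genes, and 1 was higher and 17 lower with the spike-ins, against 9.18% and 67.3%. Tlr13, a receptor for bacterial ribosomal RNA, read 1.06, 0.22, 0.83 and 0.97 against 4.53, 4.67, 4.69 and 4.78, with no overlap, and fell by 3.90. Tlr4, the LPS receptor itself, read -0.09, -0.48, -0.89 and -0.21 against 1.88, 1.83, 1.62 and 1.97, and fell by 2.24 (limma adjusted p = 4.63e-06). All 4 emodin arrays of each were below the lowest LPS plus IFNg array. Tlr12, which senses profilin, was at least 26.9-fold lower and Tlr3, which senses double-stranded RNA, at least 6.17-fold lower. Ticam1, the adaptor TRIF that serves TLR3 and TLR4, went the other way: 4.57, 4.58, 4.64 and 4.54 against 2.55, 2.86, 2.90 and 2.79, a rise of 1.81 that no array contradicted.

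Among 22 interferon receptor, Janus kinase and STAT genes, 6 were higher and 12 lower with the percentile (2 and 16 with the spike-ins). The interferon feedback inhibitors Usp18 and Socs1 fell by 2.81 and by 2.34. Ptpn6, the phosphatase SHP-1, fell by 2.04, and the cytokine signalling inhibitor Socs2 fell by 1.49. Ifnar2, a chain of the type I interferon receptor, rose by 1.24 and Stat5a by 1.30. Interferon regulatory factors numbered 9, of which 1 was higher and 5 lower with the percentile and 8 were lower with the spike-ins. Irf7, the master factor of type I interferon, fell by 1.96, Irf4 fell by 1.41 and Irf5 fell by 0.99. NF-kB subunits and inhibitors (28 genes) split into 11 higher and 8 lower with the percentile and 1 higher and 17 lower with the spike-ins. Nfkbib, the inhibitor IkB beta, rose by 1.16, while the noncanonical kinase Ikbke fell by 1.01.

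MAP kinase phosphatases and messenger RNA decay factors were higher more often than lower with the percentile. These 22 genes counted 14 higher and 4 lower with the percentile and 7 higher and 10 lower with the spike-ins, with medians of 0.36 and -0.34. Dusp4, a nuclear phosphatase of ERK, read 4.01, 3.64, 3.75 and 3.80 against 1.40, 1.29, 1.19 and 1.17, a rise of 2.54 without overlap. Zfp36, the protein tristetraprolin that destabilises cytokine messengers, read 2.47, 2.12, 2.35 and 2.47 against 0.03, 0.44, 0.78 and 0.12 and rose by 2.01. Dusp6, a cytoplasmic ERK phosphatase, went the opposite way, from 2.40 to 2.82 without emodin to 0.17 to 0.70 with it. Transcription factors of the AP-1, KLF and EGR families (29 genes) gave 10 higher and 14 lower with the percentile and 5 and 20 with the spike-ins. Klf7 rose by 2.01 and Fos by 1.59, and Fosl1 fell by 2.02 and the immediate early gene Ier2 fell by 3.06.

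Nuclear receptors and clock genes held 10 rises among 30 tested, the highest count of the 58 functional lists, which differ in size. Over all genes 9.18% rose, and the MAP kinase phosphatase and messenger RNA decay list held 7 rises among 22. Of 30 tested, 16 were higher and 8 lower with the percentile and 10 higher and 13 lower with the spike-ins, and the median was 0.51 with the percentile and -0.19 with the spike-ins. Rxra, the shared partner of many nuclear receptors, read 2.00, 2.31, 2.25 and 1.96 on the emodin arrays against -2.04, -1.52, -1.85 and -1.92 (difference 3.96 ± 0.13, SE, limma adjusted p = 1.1e-07). Its groups did not overlap, but the other kept probe of Rxra differed by only 0.02. Pparg, the fatty acid receptor of lipid-handling macrophages, read 3.54, 3.73, 3.87 and 3.72 against 1.28, 1.09, 0.66 and 1.26, a rise of 2.64. Nr1d1, the clock repressor REV-ERB alpha, was at least 7.61-fold higher, and the clock gene Per2 was at least 1.63-fold lower.

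Inflammatory cytokines fell, with few exceptions. Of 21 inflammatory cytokines and enzymes, 17 were lower and 1 higher with the percentile, and 19 lower and 1 higher with the spike-ins. The list's median was -1.49 with the percentile, or -1.30 with undetected levels set at their bound, against 0.003 for all genes. Il12a, the p35 chain of interleukin-12, read -1.22, -3.00, -2.54 and -2.36 against -0.06, 0.21, 0.23 and -0.34, and fell by 2.29 without overlap. Csf2, which encodes GM-CSF, was at least 1.97-fold lower, a call that normexp background correction ended (-0.25, limma adjusted p = 0.204). Il1b, the interleukin-1 beta gene, read 2.18, -0.35, 0.16 and 0.97 against 4.47, 4.34, 5.09 and 4.18 and fell by 3.78. The exception was Ifnb1, the interferon beta gene, which read 0.10, -1.34, -0.48 and -0.44 against -1.81, -1.83, -1.78 and -1.92. It rose by 1.30 ± 0.26 (SE, limma adjusted p = 0.0016), and by 0.60 with the spike-ins (limma adjusted p = 0.0217). The latter call was lost without emodin replicate 1 (0.44, adjusted p = 0.0673), emodin replicate 4 (0.52, adjusted p = 0.0604), LPS plus IFNg replicate 1 (0.55, adjusted p = 0.0522) or replicate 3 of both groups (0.61, adjusted p = 0.0573), and with normexp (0.36, adjusted p = 0.0540). Its emodin arrays were the more spread group, and array 1 was the highest.

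Chemokines and their receptors moved in both directions. Among 23 chemokines, 7 were higher and 10 lower with the percentile and 3 higher and 16 lower with the spike-ins. Cxcl3, a neutrophil attractant, fell by 5.27, and Cxcl12, which binds CXCR4, was at least 17.4-fold lower. Ccl9, a macrophage chemokine of the CCR1 group, read 5.17, 5.06, 5.33 and 5.43 against 3.12, 2.31, 2.26 and 3.26, and rose by 2.51. Of 14 chemoattractant receptors, 6 were higher and 5 lower with the percentile and 4 and 9 with the spike-ins. Fpr1, the formyl peptide receptor, read -1.78, -1.94, -1.62 and -2.23 against 1.78, 1.81, 2.32 and 1.74, and fell by 3.80. Cxcr4 rose by 2.13 and the complement receptor C3ar1 by 1.74. In the TNF and costimulatory group of 29, 8 were higher and 15 lower with the percentile and 1 and 23 with the spike-ins. Tnfsf13b, the B cell survival factor BAFF, fell by 3.09, the death ligand Tnfsf10 was at least 15.9-fold lower, and Tnfsf14 rose by 1.64.

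Antiviral effectors fell with few exceptions. Of 34 interferon-stimulated antiviral genes, 31 were lower and 1 higher with the percentile (37.6% and 36.9% of all genes), 33 were lower and none higher with the spike-ins, and the median was -1.52 with the percentile. Slfn4 read -1.28, -2.84, -2.24 and -1.84 on the emodin arrays against 2.54, 2.81, 3.19 and 2.96, and fell by 4.92, and Ifi44 fell by 4.03. Sting1, the adaptor that relays cytosolic DNA sensing, read 3.39, 3.10, 2.58 and 3.23 against 6.25, 6.02, 6.03 and 6.14, and fell by 3.03 without overlap. Cgas, the enzyme whose product activates Sting1 and which was named after its value was seen, was the single member that was higher with the percentile, by 0.56, and it differed by -0.14 with the spike-ins (limma adjusted p = 0.395).

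The interferon-inducible GTPases, which attack the vacuoles of intracellular microbes, had a median nearer 0 than the antiviral genes. Of 17 tested, 9 were lower and 1 higher with the percentile, 16 were lower with the spike-ins, and the median was -0.48 with the percentile. Gbp4 read 3.57, 2.81, 2.89 and 3.26 against 5.81, 5.68, 6.06 and 5.70 and fell by 2.68, without overlap, and Iigp1 fell by 1.75. Gbp10 fell by 0.85 and Igtp (Irgm3) fell by 0.88, while Irgm1 was 0.46 higher with the percentile and differed by -0.24 with the spike-ins (limma adjusted p = 0.0881, or 0.0116 with the replicate number as a block). With quantile normalization Irgm1 differed by 0.07 (adjusted p = 0.247) with the percentile and by -0.50 (adjusted p = 0.00224) with the spike-ins, limma in both. Because members of these families are close copies of each other, probes for the Gbp genes may share signal. The other induced defence lists had medians of -0.20, -0.13 and -0.21: of 24 inflammasome and death-pathway genes 12 were lower and 3 higher with the percentile, and the inflammasome adaptor Pycard fell by 2.24 and the necroptosis kinase Ripk3 fell by 2.18. Class I presentation (20 genes) gave 9 lower and 7 higher, led by the immunoproteasome subunits Psmb10 (fell by 1.66) and Psmb8 (fell by 1.60). Class II presentation (13 genes) gave 5 lower and 3 higher, led by H2-Oa (fell by 1.94) and the transactivator Ciita (fell by 1.19).

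Promoter sequence was compared for these interferon-responsive lists, since their members share a known element. The 32851 promoters of the RefSeq table (GRCm38.p6, 300 bases each, around the start of transcription) were searched on both strands for GAAANNGAA, the core of the interferon-stimulated response element, and 8.56% held it. Among antiviral genes 15 of 30 promoters held it (50%), and among GTPases 9 of 11 (81.8%). The windows below are shown because their genes, chosen after their values were seen, went different ways, with the match or its reverse complement in capitals, 5′ to 3′ on the strand of the gene. They lie at chr5:92349069-92349127 (Cxcl10, minus strand), chr19:34583349-34583460 (Ifit3, plus), chr11:58199497-58199555 (Igtp, plus), chr11:48871421-48871475 (Irgm1, minus), chr3:142620580-142620638 (Gbp2, plus), chr3:142496745-142496803 (Gbp5, plus) and chr3:142530259-142530317 (Gbp7, plus), all upstream of the start of transcription.
Cxcl10: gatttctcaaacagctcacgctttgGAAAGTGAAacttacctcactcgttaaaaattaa
Ifit3: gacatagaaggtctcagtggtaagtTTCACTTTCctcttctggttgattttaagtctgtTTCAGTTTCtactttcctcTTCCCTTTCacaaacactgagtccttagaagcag
Igtp: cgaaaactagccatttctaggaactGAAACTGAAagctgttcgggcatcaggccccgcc
Irgm1: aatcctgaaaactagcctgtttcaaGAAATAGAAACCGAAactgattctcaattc
Gbp2: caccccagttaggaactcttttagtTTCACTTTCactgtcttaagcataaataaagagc
Gbp5: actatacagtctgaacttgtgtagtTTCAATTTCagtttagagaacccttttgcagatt
Gbp7: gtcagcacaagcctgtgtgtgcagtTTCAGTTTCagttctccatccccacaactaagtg
Ifit3 holds 3 matches and Irgm1 2 that overlap, and the other windows hold 1 each, with all matches between 24 and 213 bases before the start. With percentile scaling Cxcl10 fell by 3.13 and Ifit3 fell by 3.71, Igtp fell by 0.88 and Gbp2 fell by 0.48. Gbp5 differed by 0.09 (limma adjusted p = 0.476), Gbp7 by 0.11 (adjusted p = 0.306) and Irgm1 by 0.46. Genes with the element thus spanned more than 4 log2 units. The 14 tested antiviral genes with the element all fell (median -1.90), and of 12 without it 10 were lower and 1 higher (median -1.23). Of 9 GTPases with the element 3 were lower and 1 higher with the percentile (median -0.41). The 1 GTPase searched and found without it differed by 0.06 and was not called. Another 7 GTPases had no promoter to search, and 6 of them were lower (median -0.84). All 9 ribosomal protein genes with the element were higher, as were all 23 without it. Over all genes the shares lay close together: 8.03% of 2043 promoters of genes that fell 2-fold or more held it, 8.42% of 368 promoters of genes that rose 2-fold or more, and 7.51% of the promoters of all genes tested.

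The other 10 motifs searched had these shares. GGGANTTTC (NF-kB) was found in 1.42% of promoters of large falls and 1.09% of large rises, and TGACTCA (AP-1) in 5.43% of each. CACGTG (E-box) was in 7.39% and 8.42%, against 9.84% of the promoters of genes tested, and the longer TCACGTGA, which contains it, in 0.538% and 1.09%, against 1.77%. TGATGCAAT (ATF4 and CEBP) was in 0.0489% of the promoters of large falls and in none of large rises. TGACNNNGC (antioxidant response) was in 13.9% and 11.4%, GCGTG (xenobiotic response) in 44.0% and 41.6%, TCACCCCAC (sterol response) in 0.832% and 0.543%, TTTGGCGC (E2F) in 0.685% and 0.272%, and CCAAT in 37.6% and 32.3%.

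Phagocytic and lectin receptors moved in both directions. Of 29, 9 were higher and 13 lower with the percentile and 4 higher and 19 lower with the spike-ins. Trem2, a lipid-sensing receptor of tissue macrophages, read 8.80, 8.74, 8.92 and 8.93 against 6.35, 6.04, 5.91 and 6.32, a rise of 2.70 without overlap (1.99 with the spike-ins). Olr1, the oxidised LDL receptor LOX-1, fell by 5.32, and the apoptotic cell receptors Axl and Timd4 fell by 3.16 and by at least 6.62-fold. Resident peritoneal macrophage genes (19 tested) counted 10 lower and 6 higher with the percentile, with a median of -0.82, and Selp rose by 1.57.

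Matrix, adhesion and protease genes held some of the widest differences. Of 34 complement, coagulation and protease inhibitor genes, 23 were lower and 10 higher with the percentile (26 and 5 with the spike-ins), and the median was -0.91. Serpinb9, the inhibitor of granzyme B, read -0.38, -0.73, -0.84 and -0.64 against 4.15, 4.27, 4.09 and 4.20, and fell by 4.83 without overlap. Slpi, a secreted inhibitor of neutrophil proteases, read 9.39, 9.59, 9.84 and 9.25 against 7.81, 7.57, 7.82 and 7.77, a rise of 1.77 without overlap. Metalloproteinases, integrins and adhesion genes (29) were split evenly at 12 higher and 12 lower with the percentile. Mmp3 was at least 17.6-fold and Mmp9 at least 8.19-fold lower. Itgal, the LFA-1 chain, read 0.51, 0.38, -0.04 and 0.04 against 3.99, 4.13, 3.94 and 3.96 and fell by 3.78. Spp1, the secreted phosphoprotein osteopontin, read 8.22, 7.97, 8.12 and 8.23 against 5.45, 5.09, 5.32 and 5.21, a rise of 2.87 (limma adjusted p = 1.14e-07), and the integrin chain Itgb3 rose by 2.29.

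Markers of other cells moved with these groups, some lower and some higher. All 8 fibroblast markers tested fell, with a median of -2.90 (-2.08 with undetected levels at their bound), and the summed level of the list (in multiples of the array's 75th percentile) was 35.4 to 58.5 on the emodin arrays and 103.6 to 198.2 on the LPS plus IFNg arrays. Col1a2 read 2.21, 0.56, 0.87 and 1.69 against 5.54, 4.59, 4.96 and 5.49, and Pdgfra was at least 11.4-fold lower, below background on all emodin arrays. Mesothelial markers summed to 0.333 to 1.22 against 1.41 to 4.51, with Upk3b, Upk1b, Lrrn4 and Gpm6a undetected on all arrays. Of 4 tested, Wt1 fell by 4.83, and the other 3 were not called with the percentile (highest difference 0.47). With the spike-ins 3 of the 4 were lower. B cell markers summed to 0.380 to 0.539 against 0.855 to 2.25, with Cd79a and Blk undetected on all arrays. Summed levels went the other way for T cell markers (134.8 to 153.8 against 85.7 to 90.5), NK cell markers (1.78 to 2.43 against 0.896 to 1.43), dendritic cell markers (262.5 to 355.5 against 229.3 to 253.1) and, with overlap at the edge, neutrophil markers (124.9 to 199.4 against 113.7 to 125.4). All sums of this paragraph were taken with percentile scaling only. Undetected on all arrays were Cd8a and Tcf7 of the T cell list and Klrb1c, Klrd1 and Eomes of the NK cell list. So were Xcr1 and Cd209a of the dendritic cell list. Of 6 T cell markers tested, 2 were higher and 1 lower with the percentile (median 0.01), and 0 were higher and 3 lower with the spike-ins. Only 3 NK cell markers were tested, 2 higher and 1 lower with the percentile and 1 and 1 with the spike-ins. Of 6 dendritic cell markers tested, 1 was higher and 3 lower with the percentile, and 0 were higher and 5 lower with the spike-ins. Mast cell and eosinophil markers overlapped (1.53 to 2.90 against 1.15 to 2.22). Macrophage markers summed to 1087 to 1245 against 799 to 875. Of 9 macrophage markers tested, 4 were higher and 4 lower with the percentile, and 6 were lower and none higher with the spike-ins. The part of these cells in the falls of matrix genes such as Timp3, Mmp3 and Sulf1 was not tested.

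Lipid synthesis genes were mostly lower, and lipid handling genes went both ways. Of 32 cholesterol and fatty acid synthesis genes, 23 were lower and 6 higher with the percentile (27 and 2 with the spike-ins), with a median of -0.80 (-0.75 with undetected levels at their bound). The desaturase Scd2 fell by 4.34, whereas Insig1, which retains the sterol sensor in the endoplasmic reticulum, rose by 1.49. Among 23 LXR targets and lipid handling genes, 13 were higher and 7 lower with the percentile (6 and 11 with the spike-ins). Fabp4, the fatty acid chaperone of adipocytes and macrophages, read 6.62, 6.60, 6.99 and 6.45 against 3.82, 3.85, 3.93 and 3.62, a rise of 2.86, and the lipid droplet coat gene Plin2 rose by 1.63. Neither gene had overlapping arrays. The transporter Abcg2 fell by 1.81. Fatty acid oxidation (23 genes) counted 14 lower and 5 higher with the percentile, and Acsl4 fell by 2.11 and Acadm fell by 1.61, while Hadhb rose by 1.16.

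Energy metabolism was lower in more genes than it was higher. Over all genes 37.6% were lower and 36.9% higher with the percentile, and 67.3% and 9.18% with the spike-ins. Glycolysis and sugar transport (24 genes) gave 13 lower and 7 higher with the percentile and 20 and 2 with the spike-ins. Slc2a6, a lysosomal hexose transporter of activated macrophages, read 4.87, 4.69, 4.48 and 4.62 against 8.14, 8.27, 8.16 and 8.07, and fell by 3.50 without overlap. Ldhb rose by 1.41 and Eno2 by 1.36. Of 35 citric acid cycle and pyruvate enzymes, 19 were lower and 8 higher with the percentile (31 and 0 with the spike-ins), led by pyruvate carboxylase (Pcx, which fell by 2.07) and Dlat of the pyruvate dehydrogenase complex (fell by 1.89). Oxidative phosphorylation subunits (40) had a median of -0.13, with 17 lower and 8 higher with the percentile and 38 lower with the spike-ins. All 14 genes of NADPH supply were lower with the spike-ins and 10 were lower with the percentile, among them Me1, the cytosolic malic enzyme, which fell by 3.87, G6pdx, the first enzyme of the pentose phosphate pathway, which fell by 1.04, and Idh1, which fell by 1.03. Hypoxia-inducible genes (19) were mixed at 6 higher and 8 lower with the percentile: Ndrg1 read 6.54, 6.59, 6.65 and 6.65 against 4.83, 4.18, 4.85 and 4.30 and rose by 2.07, while Car9 fell by 1.05.

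Redox and detoxification lists held more lower than higher genes, and iron handling did not with the percentile. Over all genes 37.6% were lower and 36.9% higher with the percentile. Of 35 NRF2, glutathione and thioredoxin genes, 21 were lower and 7 higher with the percentile and 31 and 2 with the spike-ins. The cystine importer Slc7a11 fell by 2.59 and Gstp1 fell by 2.29, and the extracellular peroxidase Gpx3 rose by 2.46. In the NADPH oxidase list (13 genes) 6 were lower and 4 higher with the percentile, and the extracellular superoxide dismutase Sod3 fell by 5.14. Nqo1, a quinone reductase of the NRF2 list, fell by 2.89. Xenobiotic genes (26) gave 14 lower and 8 higher, and Cyp1b1, a cytochrome induced by the aryl hydrocarbon receptor, fell by 6.98 and was well above background on 2 of the 4 emodin arrays. Ahrr, the repressor of the aryl hydrocarbon receptor, was at least 9.29-fold lower, and the oxysterol hydroxylase Cyp7b1 at least 23.9-fold lower. Arnt, the partner of that receptor, read 3.71, 3.86, 4.04 and 3.71 against 0.76, 0.77, 0.79 and 0.85, a rise of 3.04, while its other probe differed by 0.62 with the percentile. Iron handling (23 genes) was split at 11 higher and 9 lower with the percentile: beside Hamp the carrier Trf rose by 1.25, and Lcn2, which binds bacterial siderophores, read 1.60, 1.07, 1.19 and 1.64 against 4.84, 4.74, 4.61 and 4.77 and fell by 3.36.

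Amino acid, nucleotide and protein folding lists each held more lower than higher genes with the percentile, where all genes gave 37.6% lower and 36.9% higher. With the spike-ins the 5 lists, in the order below, gave 15 lower and 2 higher, 25 and 1, 24 and 3, 21 and 1, and 19 and 1. All genes then gave 67.3% lower and 9.18% higher. Tryptophan, arginine and tetrahydrobiopterin enzymes (20) counted 11 lower and 7 higher with the percentile. Kynu of the kynurenine pathway was at least 8.73-fold lower, and Ass1, which regenerates arginine, fell by 2.53. The polyamine genes Odc1 and Sat1 rose, Odc1 from 3.55 to 3.87 without emodin to 5.43 to 5.70 with it, and Sat1 by 1.14. Nucleotide synthesis and purine receptors (31) gave 20 lower and 6 higher, with Adora3 at least 16.9-fold lower, and P2ry6 fell by 4.28. ATF4 targets (29) gave 17 lower and 5 higher, with Aldh1l2 at least 7.63-fold lower and Cth at least 7.40-fold lower, and Slc3a2 up by 1.39. Of 25 unfolded protein response genes 13 were lower and 6 higher, and the sensor Ern1 (IRE1 alpha) rose by 1.95. Heat shock proteins (23) gave 10 lower and 6 higher, and the collagen chaperone Serpinh1 fell by 3.95.

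The functional lists with the highest medians were ribosomal proteins, p53 targets, translation factors, nuclear receptors and lysosomal genes. All 43 cytosolic ribosomal protein genes tested were higher with the percentile, by a median of 0.74, while with the spike-ins 5 were higher, 1 was lower and the median was 0.04. Mitochondrial ribosomal proteins (38) did not follow, with 11 higher and 18 lower with the percentile and 32 lower with the spike-ins. Of 35 translation factors 23 were higher and 7 lower with the percentile and 5 and 15 with the spike-ins. Eif2s3x, the gamma subunit of eIF2, read 3.69, 3.70, 3.55 and 3.70 against 1.18, 0.94, 1.20 and 1.15, a rise of 2.54 without overlap. Ribosome biogenesis genes and MYC (32) were even at 13 and 13. Myc itself read 1.32, 1.39, 1.60 and 1.50 against -1.63, -2.08, -1.84 and -1.40, a rise of 3.19 ± 0.14 (SE, limma adjusted p = 3.41e-07), and its antagonist Mnt rose by 1.34. Polr1b, a subunit of the polymerase that transcribes ribosomal RNA, fell by 1.50, and the maturation factor Wdr12 fell by 1.47 and Rrp12 fell by 1.45.

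The p53, lysosome and autophagy lists were higher with the percentile. Of 29 p53 genes, 20 were higher and 7 lower with the percentile and 6 and 11 with the spike-ins. Gdf15, a stress-induced cytokine, rose by 3.04. Trp53inp1 read 2.89, 2.96, 2.81 and 3.03 against 0.79, 0.85, 1.14 and 0.82, a rise of 2.02, Mdm4 rose by 1.82 and Phlda3 by 1.78. Lysosomal hydrolases and membrane proteins (32) gave 25 higher and 3 lower with the percentile and 3 and 12 with the spike-ins, and vacuolar ATPase subunits (18) gave 12 and 2, then 1 and 7. Idua, the alpha-iduronidase, rose by 1.56, and Ctsc, which activates serine proteases, fell by 1.92. Autophagy genes (34) gave 20 higher and 7 lower with the percentile and 5 and 17 with the spike-ins: the receptor Optn read 3.19, 3.35, 3.43 and 3.17 against 1.12, 1.08, 1.24 and 0.94 and rose by 2.19, and the initiating kinase Ulk1 rose by 1.33. Proteasome subunits (33) went the other way, 21 lower and 4 higher, and Psmb2 fell by 1.07. CACGTG, the core of the element bound by TFEB and its relatives, was in 8 of 33 promoters of the lysosomal list (24.2%), against 9.84% of the promoters of all genes tested. Among other lists the share was 31.3% in translation factors, 30.8% in aminoacyl-tRNA synthetases, 25% in AP-1, KLF and EGR factors and in vacuolar ATPase subunits, 24.1% in ribosome biogenesis and 13.8% in autophagy genes. Ctsl, which encodes cathepsin L, rose by 1.13, and its spike-in call was lost with quantile normalization (0.11, limma adjusted p = 0.467). Its window lies at chr13:64370726-64370770 on the minus strand and is shown as an example of that list, with the match in capitals.
Ctsl: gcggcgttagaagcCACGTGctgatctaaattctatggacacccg

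Chromatin, cycle and traffic genes completed the lists. Polycomb, histone and DNA modifying enzymes (44) gave 27 higher and 9 lower with the percentile and 4 and 20 with the spike-ins, and the DNA methyltransferase Dnmt3a rose by 1.47 while the acetyltransferase Kat2b fell by 2.23. Cell cycle genes (32) gave 15 lower and 9 higher. Ccnd3 read 1.97, 1.21, 1.42 and 1.41 against 5.13, 4.88, 5.18 and 4.90, and fell by 3.52, and Ccnd2 fell by 3.10, while Mki67 and the replication helicase subunit Mcm2 rose by 1.52 and 1.42. RNA polymerase II and splicing factors (37) gave 16 higher and 11 lower, with Hnrnpc up by 1.71 and Srsf3 that fell by 1.35. Among 37 Rab and endosomal genes 10 were higher and 15 lower: Rab9, which returns mannose 6-phosphate receptors from endosomes, rose by 1.85, and Rab32 fell by 1.65. TGF beta family genes (29) gave 18 lower and 5 higher, and Eng fell by 2.18 while Smad3 rose by 1.44. Regulators of G proteins and small GTPases (26) gave 13 higher and 9 lower: beside Rasgrp4 the Gq regulator Rgs3 rose by 2.47, and Dock2, the Rac activator of leukocyte migration, read -1.89, -1.99, -1.96 and -1.72 against 1.98, 2.17, 2.25 and 2.16 and fell by 4.03.

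The remaining lists had medians of -0.37 to 0.09 with the percentile. Alternative activation markers (18) gave 6 higher and 8 lower with the percentile and 2 and 12 with the spike-ins. The members that rose with both were Mrc1, the mannose receptor, which read 4.53, 4.74, 3.95 and 4.67 against 1.41, 1.41, 0.58 and 1.58 (3.23, no overlap), and the chemokine Ccl22, which was at least 6.83-fold higher. Lipid mediator genes (20) gave 6 and 9, then 2 and 15: Cysltr1, a receptor for cysteinyl leukotrienes, read -3.00, -3.69, -3.59 and -3.29 against 0.63, 0.56, 0.83 and 0.51, and fell by 4.03. Cysltr1 had no overlap between groups. Myeloid lineage factors and growth factor receptors (26) gave 9 higher and 13 lower, then 5 and 19. Gfi1, a repressor of monocytic genes, rose by 2.00, and the granulocyte factor Cebpe was at least 5.51-fold lower. Cytosolic aminoacyl-tRNA synthetases (20) gave 8 and 6, then 0 and 13, and Wars, the interferon-inducible tryptophan enzyme of that list, fell by 0.61. BCL2 family genes (15) gave 6 and 5, then 2 and 10, and the survival gene Bcl2a1d fell by 1.23. The BCL2 list had a median of -0.03 with the percentile, and of 0.27 without replicate 3 of both groups.

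**Figure D4:**
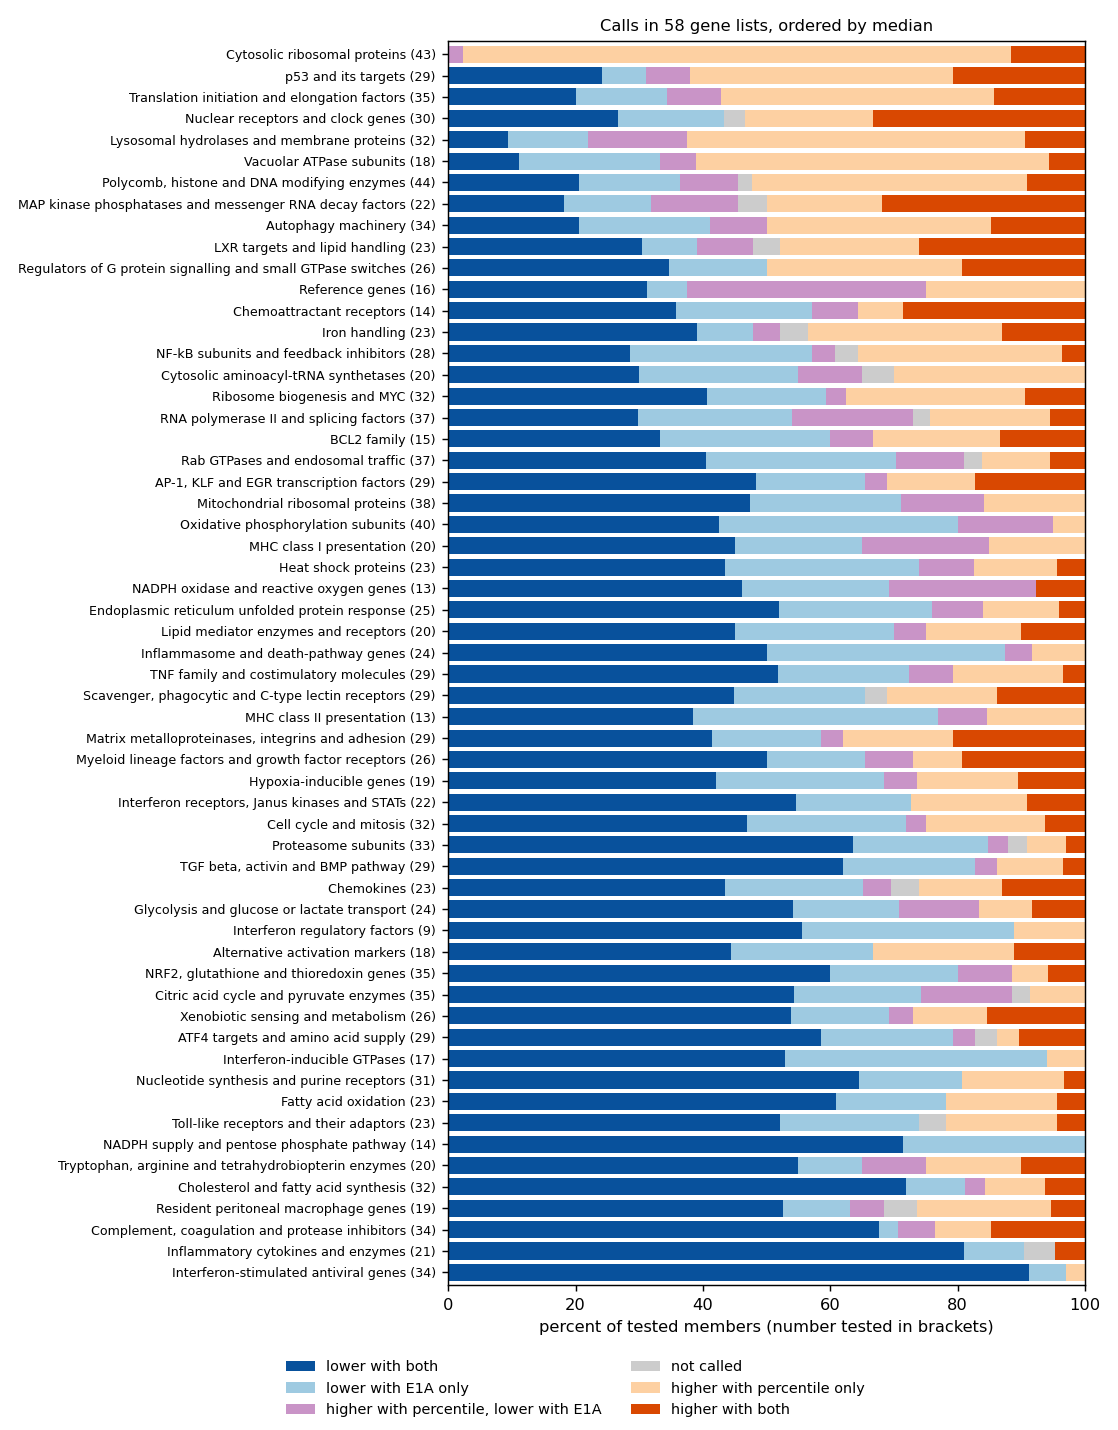
Share of tested members (horizontal axis, percent) of 58 gene lists (vertical axis, number tested in brackets) by call, ordered by the list's median difference with percentile scaling. Cytosolic ribosomal proteins (median 0.74) are at the top and interferon-stimulated antiviral genes (median -1.52) at the bottom. Dark colours mark the same call with both scalings, which 132 list genes had as a rise and 632 as a fall.

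Over the 58 functional lists, 40 medians were below 0 with the percentile and 57 with the spike-ins. The single list whose median was above 0 with the spike-ins was the cytosolic ribosomal proteins. Leaving out replicate 3 of both groups lowered the ribosomal rises with the spike-ins from 5 to 2 and left 42 of the 43 higher with the percentile.

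Probes of 1 gene did not always move together. Of 3166 genes with several kept probes, 247 (7.80%) had probes called in opposite directions with the percentile and 180 (5.69%) with the spike-ins, and 54 (1.71%) had such a conflict with both. Differences between probes of a gene spanned more than 1 log2 unit for 530 genes (16.7%). Cplx2 had the widest span, from -3.35 to 1.27, followed by Atrnl1 and by Frmd4a at -1.34 to 2.56. The adhesion receptor Cd44, which has many splice forms and was chosen after its values were seen, spanned -1.12 to 2.03. The other probe of Egfr lay at -0.21 and that of Ankrd33b at 0.78, both far from the brightest probe of the gene. Sulf1, Ly6c1 and Dock2 kept their direction in their other probes, at -3.48, -3.95 and -2.79.

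Probes without a gene name were higher more often than named ones. Of 9059 unnamed probes that passed the filter, 51.8% were higher and 18.7% lower with the percentile, against 37.5% and 36.2% of 16296 named probes. With the spike-ins 14.5% were higher and 46.9% lower, against 9.70% and 65.7%. The excess was present in every brightness class of equal size, and in the brightest class 61.6% of unnamed and 44.6% of named probes were higher with the percentile. Named probes for noncoding transcripts (408) lay with the unnamed ones, at 49.5% higher and 22.3% lower with the percentile. These were probe-level shares from the same fit over all kept probes, given as a description.

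**Figure D5:**
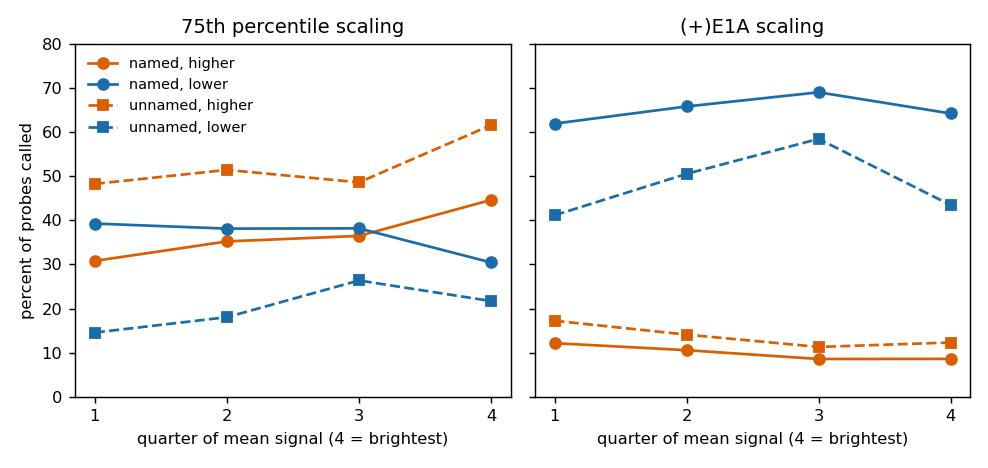
Percent of probes called higher (orange) or lower (blue) with emodin (vertical axis) in each of 4 equal classes of mean signal (horizontal axis, 4 is brightest), for named probes (circles, solid) and unnamed probes (squares, dashed), with percentile scaling at left and (+)E1A scaling at right. Unnamed probes were higher more often than named ones in every class with both scalings, 61.6% against 44.6% in the brightest class with the percentile.

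Gene features the comparison did not use varied mildly. On chromosome X, 29.1% of 378 genes were higher and 46.0% lower with the percentile, against 36.9% and 37.6% overall. Without replicate 3 of both groups these were 27.5% and 40.5%, against 34.7% and 35.0% overall. Genes in the shortest of 4 equal classes by genomic length (median 4.32 kb) were higher in 41.2% and lower in 32.8% of cases, and those in the longest class (median 89.5 kb) in 33.5% and 41.7%. By brightness, 31.2% of the dimmest class and 45.5% of the brightest were higher with the percentile.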

How the data were processed

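Data were 8 single-colour Agilent arrays of mouse macrophage RNA. Scanner intensity (background-subtracted processed signal) was deposited by the authors, and per the submitters' processing notes it came from Feature Extraction 10.7.3.1. The flags (other) for outliers, background and saturation are also columns of the deposited files. The deposited log2 value table of the authors matched quantile-normalized log2 signal centred on each probe's median (column medians -0.031 to 0.042), and served as an alternative beside quantile normalization, normexp, other probe filters, the mean of probes, all 12 arrays, a replicate block and left-out arrays. Replicate outlier spots and control spots were left out and spots of a probe averaged.

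A probe was kept when well above background on all 4 arrays of either group. Names came from the RefSeq table, giving 16296 named of 25355 kept probes and 12523 genes, each read by its brightest probe. limma 3.58.1 in R 4.3.3 compared 4 with 4 arrays with Benjamini-Hochberg adjustment, without a block, after scaling to the 75th percentile or to 8 (+)E1A probes. On simulated arrays 200 of 12523 genes were changed, without pairing or array effects. There 86% to 90% of 2-fold and 94% to 99% of 4-fold changes were found, with 2 to 10 false calls. Far more genes were called in the data, so these rates need not hold there. Bounds set the dim group at the lowest signal among probes well above background, or at its own where higher, per array. Same-numbered arrays deviated together (correlations 0.272, 0.350, 0.172 and 0.174). They also share a slide column, so a pairing of samples and one of array position cannot be told apart. The numbers were used as pairs in the pair differences, the paired p-values and the block alternative only. The members and lists were chosen with earlier results of these data known. Named genes were the 12 largest rises and falls, the 6 largest bounds each way, up to 4 leading members of a list with up to 2 in the opposite direction, markers, reference genes, genes nearest 0 and genes with the widest pairs. Others are said to be chosen after their values were seen. The largest rises and falls had to have the same call with both scalings and no overlap between groups with either. Such a gene also needed a probe, not always the brightest, well above background on each of the 8 arrays. Genomic length replaced protein length, and median replaced mean signal in the normexp alternative, since no protein table or mean signal was used here. Many genes that the rule picks are not reported here, and list counts include them.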

Additional observations from a re-analysis of the deposited data

Results flagged for a closer look

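Levels on the log2 percentile scale were checked for a single array far from the other 3 of its group, by the gap over the range (Dixon's ratio, at its 95% critical value). Of 436 groups tested, 21 stood apart in this way (4.82%), where chance picks out about 1 in 20. Among emodin arrays, replicate 1 stood apart for Egfr (-3.87, others up to -5.42), Irgm1 (8.24), Rrp12 (-3.11), Vnn1 (0.29, others 1.03 to 1.11) and Wdr12 (-1.80). Replicate 2 stood apart for Selp (-2.55), and replicate 3 for Eif2s3x (3.55), Igf1 (5.27) and Nfkbib (7.07). Among LPS plus IFNg arrays, replicate 1 stood apart for Eng (1.51), Gbp2 (10.04), Ifnar2 (5.97) and Psmb8 (7.32), and replicate 2 for Pcdha8 (-4.59) and Per2 (-3.16). Replicate 3 stood apart for Axl (6.05), Fpr1 (2.32), Orm2 (-0.95), Tnfsf13b (-0.30) and Trp53inp1 (1.14), and replicate 4 for Rasd2 (-3.40).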

How the results depend on the processing

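Counts of calls stayed within 1.5 times of the main value under all 19 alternatives but 1. Without a filter on dim probes 20887 genes were tested, and 13425 of them were lower with the spike-ins. With the percentile, 4617 were then higher and 4841 lower. Probes not well above background on any array read lower by -0.80 on the emodin arrays before scaling. Their part in the 13425 was not tested. Leaving out 1 array gave 4357 to 4560 higher and 4468 to 4640 lower genes with the percentile, 987 to 1206 and 7906 to 8687 with the spike-ins, the same 987 to 1206 and 4468 to 4640 for both scalings, 115 to 137 and 594 to 623 among list genes, -0.097 to -0.019 for the spike-ins and -0.944 to -0.818 for the median gene. With the replicate number as a block 4709 genes were higher and 4751 lower with the percentile, and 1420 and 9072 with the spike-ins. Of the genes named, the block changed the call of Irgm1 with the spike-ins (-0.24) and no other call. Within pairs the median gene (-0.88) had an exact p of 0.125. Quantile normalization reversed Btn1a1 (-0.37), Gapdh (-0.20) and Gbp5 (-0.28) with the percentile and Rps9 (-0.29) with the spike-ins. The deposited value table gave -0.36 for Btn1a1, -0.21 for Gapdh, -0.28 for Gbp5 and -0.29 for Rps9. The mean over probes, which joins probes that differ, gave -0.090 (percentile) and -0.79 (spike-ins) for Cplx2, 0.61 for Frmd4a and -0.34 for Gapdh. The cause of the other reversals was not tested. Without the 2-fold minimum, promoters of lower genes held TGACTCA in 4.45%, CACGTG in 8.74%, TCACGTGA in 1.06% and GCGTG in 48.9% of cases. Probes not well above background limit what falls can be sized.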

Other observations

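Gene families outside the lists were looked at after their values were seen, so they are given as a description. Of 38 histone genes tested, 33 were higher and none lower with the percentile, and 21 were higher and 6 lower with the spike-ins, with medians of 1.16 and 0.46. H4c17 was higher by 4.61 and H3c1 by 3.54 with the percentile. Histone genes are near-identical copies, so single members are uncertain. On chromosome 13, 19 of 29 histone genes were higher with the spike-ins (65.5%), and 46 of the other 450 genes tested (10.2%). Small nucleolar RNA host genes (11) gave 7 higher and 2 lower with the percentile and 6 and 5 with the spike-ins: Snhg15 rose by 2.71 and Snhg18 fell by 4.14.

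Dock family exchange factors (10) gave 8 lower and 1 higher with the percentile and 9 lower with the spike-ins, with a median of -1.41. Dock1 fell by 2.49 and Dock5 fell by 2.41, and Dock8 was at least 4.81-fold lower. Intraflagellar transport genes (13), which build cilia, gave 10 lower with the percentile and 13 with the spike-ins, with a median of -1.24. Olfactory receptors (65 genes) gave 28 higher and 10 lower with the percentile and 7 higher and 33 lower with the spike-ins. Orm1 and Orm2, acute phase lipocalins, rose by 2.25 and 2.33. Igf1, a growth factor of tissue macrophages, rose by 3.95, and its other probes lay at -0.01 to 3.97.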
